A study of Mus musculus with 4 samples.

Results

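The TALE homeodomain genes examined here were the 9 genes *Meis1*, *Meis2*, *Meis3*, *Pbx2*, *Pbx3*, *Pbx4*, *Pknox1*, *Pknox2* and *Tgif1*, taken by their symbols from the 23420 symbols of the count files. All 9 were present, and all 9 passed the filter on low counts that left 14269 genes for testing. RNA-seq was performed on cervical motor neurons (MNs) made from E14 mouse embryonic stem cells, in 2 WT libraries and 2 libraries of *Patz1* KO cells (genotype Patz1 -/-) derived from the same line with CRISPR/Cas9. Both genotypes were grown as embryoid bodies and patterned with retinoic acid and smoothened agonist, an activator of Hedgehog signalling. The labels name neither the KO clone behind each library nor a sort for MNs, so genotype and clone cannot be told apart. Each value is an average over all cells of the culture, in which fewer cells of a type and less RNA per cell cannot be told apart. Total counts went from 14769104 to 23881522 per library. *Patz1*, the targeted gene, gave 1363 and 1499 reads in WT against 1154 and 714 in *Patz1* KO, with a log2 fold change of -1.04 (edgeR adjusted p = 1.1e-07), so its transcript was lower but still counted.

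TALE proteins carry a homeodomain with a longer loop between its first helices, and several of them bind DNA together with Hox proteins. Pbx proteins form the classic pair with Hox proteins of the anterior and central groups and add to their choice of DNA sites. Meis proteins and the related Prep proteins, which the *Pknox* genes encode, bind Pbx proteins and help to keep them in the nucleus. Tgif1 is a TALE repressor that acts on Smad proteins and on retinoid signalling, and it recognizes sites much like those of Meis. In the developing hindbrain and spinal cord these cofactors are needed for the Hox programs that set rostro-caudal identity, including that of MNs.

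In *Patz1* KO MNs, *Meis3* and *Pbx3* rose by about the same amount and *Tgif1* fell, while the more strongly counted *Meis1*, *Meis2* and *Pbx2* had log2 fold changes between -0.12 and -0.02 that did not pass the test. With the quasi-likelihood test of edgeR, adjusted over all genes tested and called below 0.05, 2 of the 9 genes were higher, 1 was lower and 6 were not called. The share called was 33.3%, against 47.9% of all genes tested, 24.1% higher and 23.8% lower in *Patz1* KO. Which share was larger depended on the setting, since 30.9% of all genes were called without WT replicate 2 and 30.7% with a minimum fold of 1.2, both with 33.3% of the 9 genes. The median log2 fold change was -0.02 over the 9 genes and -0.0014 over all genes tested. In 7 of the 9 genes (77.8%) the CPM values (counts relative to the TMM-scaled total of each library) of the 2 genotypes did not overlap, against 74.2% of all genes tested. Read against this background, neither count is a result about the TALE genes as a group.

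Promoter sequences of the called genes are shown because PATZ1, also known as MAZ-related factor, is a zinc finger protein, and MAZ binds G-rich DNA. The sequences are those of RefSeq on GRCm38.p6, which has the coordinates of mm10, and run from 250 bases before an annotated start to 50 after it. Of the 9 genes, 6 had an entry there. *Pbx3*, *Pknox1* and *Pknox2* had none. Capitals mark the heptamer GGGAGGG, the G-rich core of the MAZ motif, which was searched on both strands (CCCTCCC on the other).

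Meis3 promoter, chr7:16175145-16175444, plus strand: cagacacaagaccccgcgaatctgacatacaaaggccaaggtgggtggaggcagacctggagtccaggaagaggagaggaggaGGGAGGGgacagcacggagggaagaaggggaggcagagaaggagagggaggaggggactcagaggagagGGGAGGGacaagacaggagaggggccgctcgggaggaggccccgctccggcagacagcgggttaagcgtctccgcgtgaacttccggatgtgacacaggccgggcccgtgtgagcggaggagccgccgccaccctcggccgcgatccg

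Tgif1 promoter, chr17:70853483-70853782, minus strand: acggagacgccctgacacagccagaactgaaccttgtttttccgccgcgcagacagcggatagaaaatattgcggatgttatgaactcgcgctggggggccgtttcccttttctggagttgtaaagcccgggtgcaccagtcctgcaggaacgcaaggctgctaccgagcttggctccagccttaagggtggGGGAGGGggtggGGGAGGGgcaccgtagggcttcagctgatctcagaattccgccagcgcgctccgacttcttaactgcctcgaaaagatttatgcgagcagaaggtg

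Meis1 promoter, chr11:19018920-19019219, minus strand: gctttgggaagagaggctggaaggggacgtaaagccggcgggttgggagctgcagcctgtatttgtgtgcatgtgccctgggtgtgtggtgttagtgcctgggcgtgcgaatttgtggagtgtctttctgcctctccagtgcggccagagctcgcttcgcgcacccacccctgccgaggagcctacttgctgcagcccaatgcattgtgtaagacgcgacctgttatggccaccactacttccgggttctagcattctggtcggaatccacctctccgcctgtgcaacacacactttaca

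The *Meis3* promoter held 2 matches, and so did the most upstream of the 5 *Tgif1* starts, the one shown above, while the other *Tgif1* starts held 0, 1, 0 and 0. *Tgif1* thus had more starts in which a match could occur than the other genes. The *Meis1* promoter, shown for contrast, held 0, as did those of *Meis2* and *Pbx4*, and that of *Pbx2* held 1. Of all 32851 promoters of the same length, 22% held at least 1 match and 1.65% at least 3. The share with at least 2, as in the *Meis3* and *Tgif1* starts shown, was not computed. The letters were present in starts of a gene that rose and of a gene that fell. A match in letters is a description of the sequence and not a binding site.

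*Meis3*, a Meis gene with a role in patterning the posterior neural tube, lies on chromosome 7 of GRCm38 from 16175090 to 16186504 with no annotated gene over its exons. Its WT counts were 1060 and 1043, and its *Patz1* KO counts were 2644 and 1620, or 71.2 and 65.6 CPM against 109 and 96.6 CPM. Both *Patz1* KO libraries lay above both WT libraries. The mean of 68.4 ± 3.94 CPM in WT became 103 ± 8.83 CPM (SD, n = 2 each), a 1.51-fold rise with a log2 fold change of 0.59 (95% interval 0.39 to 0.79, edgeR adjusted p = 6.14e-05). The rise was called in all 14 settings, the main one included, with log2 fold changes from 0.5 to 0.68.

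*Meis1* and *Meis2*, which mark much of the hindbrain and spinal cord as well as limb and trunk mesenchyme, gave the largest counts of the 9 genes. *Meis1* had 274 and 294 CPM in WT and 279.7 and 282 CPM in *Patz1* KO. The *Patz1* KO values fell between the WT values. Its log2 fold change of -0.02 had a 95% interval from -0.21 to 0.17, so changes beyond those bounds lay outside the interval, and its sign changed with the processing. *Meis1* exons overlap those of *Gm37818* and, on the other strand, *Gm16140*. *Meis2* had 296 and 307 CPM in WT and 276 and 277 CPM in *Patz1* KO. Both *Patz1* KO libraries were thus lower, but by a log2 fold change of -0.12 (95% interval -0.31 to 0.06, edgeR adjusted p = 0.263) that did not pass.

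**Figure D1:**
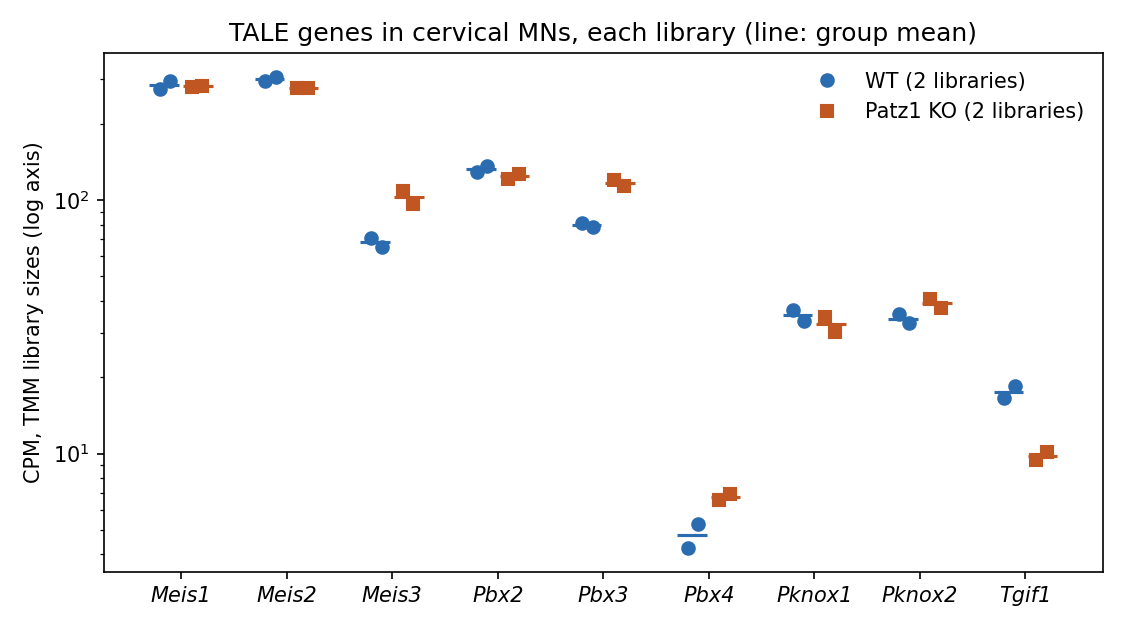
CPM of each TALE gene in each of the 4 libraries, on a log axis, with WT as blue circles, *Patz1* KO as orange squares and a line at each group mean. *Meis3* and *Pbx3* stand higher in both *Patz1* KO libraries (from 96.6 to 119.7 CPM) than in WT (from 65.6 to 81.4 CPM), *Tgif1* stands lower, and the symbols of *Meis1* and *Pknox1* overlap between genotypes.

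*Pbx3*, a Hox partner expressed in the spinal cord and hindbrain, lies on chromosome 2 from 34171457 to 34373142, also without an overlapping gene. Its WT counts were 1212 and 1251 and its *Patz1* KO counts 2901 and 1901, or 81.4 and 78.7 CPM against 119.7 and 113 CPM. The replicates lay close together and the genotypes were apart. The mean rose 1.46-fold, from 80 ± 1.9 to 117 ± 4.48 CPM (SD, n = 2 each), with a log2 fold change of 0.54 (95% interval 0.36 to 0.73, edgeR adjusted p = 6.4e-05). All 14 settings called it, with log2 fold changes from 0.51 to 0.59.

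*Pbx2*, the broadly expressed member of the family, had 129 and 136 CPM in WT and 122 and 126 CPM in *Patz1* KO. The *Patz1* KO libraries were slightly lower, with a log2 fold change of -0.10 (95% interval -0.28 to 0.08, edgeR adjusted p = 0.368), and its exons overlap those of *Gpsm3* on the same strand. *Pbx4*, best known from the testis, was rare, with WT counts of 63 and 84 and *Patz1* KO counts of 159 and 116. These were 4.23 and 5.28 CPM against 6.56 and 6.92 CPM, so that both *Patz1* KO libraries were higher. Its log2 fold change of 0.5 (standard error 0.21) was close to that of *Pbx3* but less certain, with an edgeR adjusted p of 0.0563 and a range from 0.0282 to 0.375 over the settings. It was called in 4 of the 14 settings, among them the fit without *Patz1* KO replicate 1 (log2 fold change 0.54, edgeR adjusted p = 0.0395).

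Both *Pknox* genes had intermediate counts, and neither was called. *Pknox1*, a widely expressed gene whose exons overlap those of AC166172.4 on the other strand, had 36.9 and 33.5 CPM in WT and 34.6 and 30.1 CPM in *Patz1* KO. The genotypes overlapped, with a log2 fold change of -0.12 (95% interval -0.35 to 0.11). *Pknox2*, whose expression is more restricted and includes neural tissue, had 35.4 and 32.7 CPM in WT and 40.9 and 37.5 CPM in *Patz1* KO. Both *Patz1* KO libraries were higher, with a log2 fold change of 0.2 (95% interval -0.01 to 0.42, edgeR adjusted p = 0.11). Without *Patz1* KO replicate 2 the gene was called (log2 fold change 0.27, edgeR adjusted p = 0.0173).

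*Tgif1*, the repressor of the group, lies on chromosome 17 from 70844205 to 70853546 with no overlapping gene. Its WT counts were 247 and 295 and its *Patz1* KO counts 228 and 170, or 16.6 and 18.6 CPM against 9.41 and 10.1 CPM. Both *Patz1* KO libraries lay below both WT libraries. The mean was 17.6 ± 1.39 CPM in WT and 9.77 ± 0.516 CPM in *Patz1* KO (SD, n = 2 each), 1.8-fold lower, with a log2 fold change of -0.85 (95% interval -1.15 to -0.55, edgeR adjusted p = 9.66e-05). It was called in all 14 settings, with log2 fold changes from -0.93 to -0.76.

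**Figure D2:**
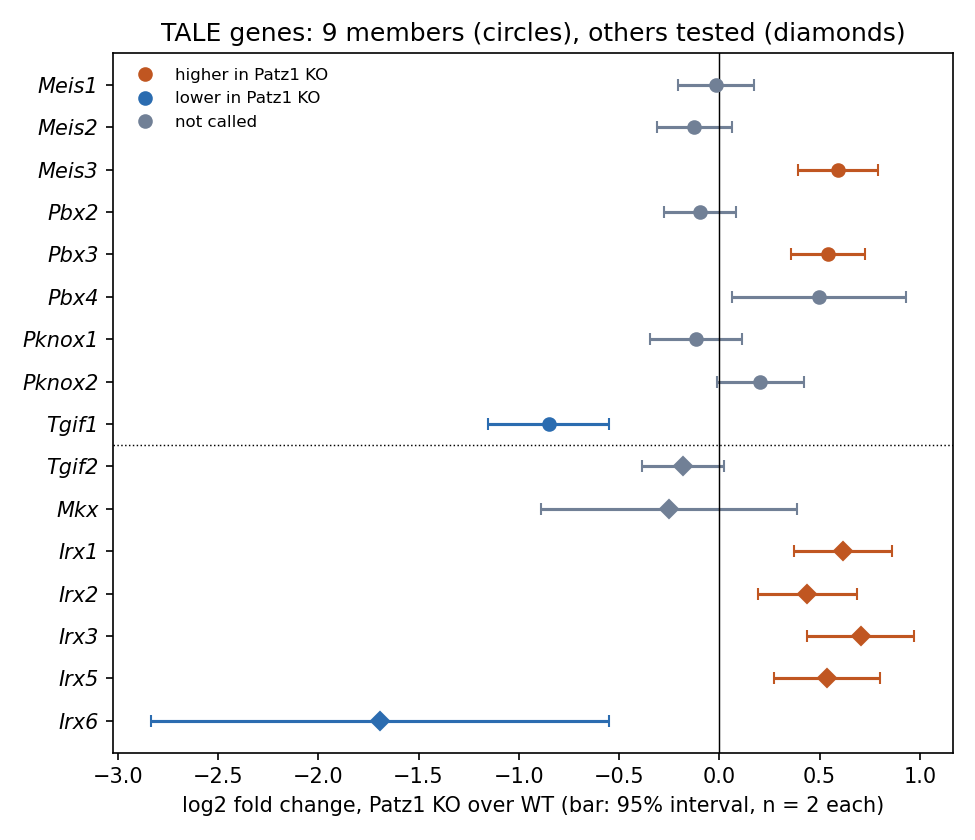
Log2 fold change of *Patz1* KO over WT for the 9 TALE genes (circles) and the other TALE genes tested (diamonds), with 95% intervals as bars and colour for the call at an adjusted p below 0.05. The intervals of *Meis3* (0.39 to 0.79) and *Pbx3* (0.36 to 0.73) lie above 0, that of *Tgif1* (-1.15 to -0.55) lies below, and those of *Meis1*, *Meis2*, *Pbx2*, *Pknox1* and *Pknox2* include 0. That of *Pbx4* (0.06 to 0.93) also lies above 0, but the gene was not called, and the intervals are not adjusted for the number of genes.

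Ratios within a library do not depend on how libraries are scaled, so paralogs were also set against each other in counts. There were 0.26 and 0.223 counts of *Meis3* for each count of *Meis1* in WT and 0.39 and 0.342 in *Patz1* KO, a rise of 0.6 in the mean log2 ratio. For *Pbx3* over *Pbx2* the ratio was 0.629 and 0.579 in WT and 0.983 and 0.896 in *Patz1* KO, a rise of 0.64 in the mean log2 ratio. *Pknox2* over *Pknox1* was 0.962 and 0.977 in WT, against 1.18 and 1.25 in *Patz1* KO, a rise of 0.32. *Tgif1* was set against its paralog *Tgif2*, and its ratio was 0.37 and 0.418 in WT and 0.231 and 0.268 in *Patz1* KO, a change of -0.66 in the mean log2 ratio. In all of these pairs the libraries of the genotypes did not overlap, but no share over all gene pairs was computed. By CPM, the genotypes did not overlap in 74.2% of all genes tested, and *Meis3*, *Pbx3* and *Tgif1* were among these. An exact permutation test cannot pass 0.05 with so few libraries, so none was run on the ratios, which are descriptions.

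To compare levels between genes, CPM was divided by the length of each gene's exons in kb from the GENCODE M21 annotation of GRCm38. By mean CPM per kb over the 4 libraries, *Pbx2* came first (33.4 to 37.3), followed by *Meis3* (20.7 to 34.4), *Meis1* (26 to 28), *Meis2* (22.9 to 25.5) and *Pbx3* (12.9 to 19.6). The place of *Meis3* differed between genotypes. In WT its 22.4 and 20.7 CPM per kb lay below both values of *Meis1* and of *Meis2*, and in *Patz1* KO its 34.4 and 30.4 lay above both of each and overlapped those of *Pbx2*. *Pknox1* (4.33 to 5.32), *Pknox2* (3.16 to 3.96), *Pbx4* (1.91 to 3.12) and *Tgif1* (1.67 to 3.3) followed at a distance. The last pair changed places, with *Pbx4* (1.91 and 2.38) below *Tgif1* (2.95 and 3.3) in WT and *Pbx4* (2.96 and 3.12) above *Tgif1* (1.67 and 1.8) in *Patz1* KO. The exon length counted matters here, since with the longest transcript as length *Meis2* came first, with 50.2 to 55.9 CPM per kb. *Pknox2* then came before *Pknox1* (9 to 11.3 against 7.07 to 8.67 CPM per kb). With that length, *Meis3* was not below *Meis1* in WT replicate 1 (29.1% against 28.6% of the summed CPM per kb of *Meis1*, *Meis2* and *Meis3*). Nor was *Meis3* above *Meis2* in *Patz1* KO replicate 2 (36.4% against 36.5%).

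The same scale gave the make-up of each group of paralogs. Of the summed CPM per kb of *Meis1*, *Meis2* and *Meis3*, *Meis3* took 30.7% and 27.9% in WT and 41% and 37.9% in *Patz1* KO, a gain of 10.2 percentage points in the mean that was 5.1 points by raw counts, without division by length. *Meis1* took 36.7% ± 1.45 in WT and 32.5% ± 1.2 in *Patz1* KO, and *Meis2* took 34% ± 0.559 and 28% ± 0.958 (SD, n = 2 each). Of the sum of *Pbx2*, *Pbx3* and *Pbx4*, *Pbx3* took 25.4% ± 1.23 in WT and 33.9% ± 1.49 in *Patz1* KO, while the share of *Pbx2* went from 70.5% ± 0.677 to 60.7% ± 1.32 (SD, n = 2 each). *Pknox2* took 39.4% ± 0.273 of the sum of *Pknox1* and *Pknox2* in WT and 44.9% ± 0.963 in *Patz1* KO (SD, n = 2 each). With the longest transcript as length, *Pknox2* took 53.2% in WT and 58.7% in *Patz1* KO, so which *Pknox* gene was larger depended on the length. *Pbx3* then took 37.7% in WT and 47.7% in *Patz1* KO. It lay above *Pbx2* in *Patz1* KO replicate 1 (48.8% against 46.3%) but not in replicate 2 (46.5% against 48.3%). Shares are tied to each other, so a gain of *Meis3* alone lowers those of *Meis1* and *Meis2*.

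**Figure D3:**
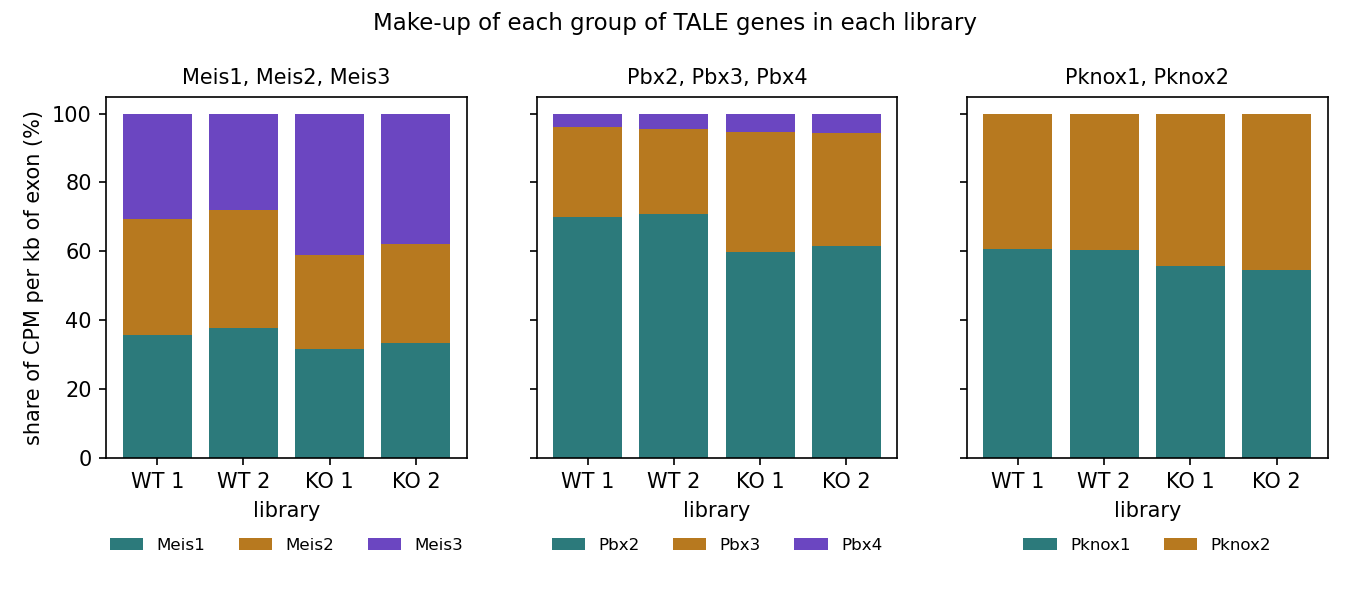
Share of the summed CPM per kb of exon that each gene took within *Meis1* to *Meis3*, *Pbx2* to *Pbx4* and *Pknox1* with *Pknox2*, as stacked bars from 0 to 100% for each library (KO: *Patz1* KO). *Meis3*, *Pbx3* and *Pknox2* take larger parts of their bars in both *Patz1* KO libraries, for *Meis3* 41% and 37.9% against 30.7% and 27.9% in WT.

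The genes most like *Meis3* and *Tgif1* across the 4 libraries were sought by the root mean square difference of log2 CPM, after each gene's mean had been taken away. For *Meis3* these were *Dnm1*, a dynamin of synaptic vesicle uptake (difference 0.0118), *Gnao1*, a G protein subunit abundant in neurons (0.0143), and *Plch2* (0.0151). For *Tgif1* they were *Gm17821* (0.0126), the histone acetyltransferase gene *Hat1* (0.0193) and *Ska3*, which acts at kinetochores (0.0199). Such patterns were common, and 759 and 262 tested genes lay within a difference of 0.1 of *Meis3* and *Tgif1*, respectively.

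Among the other TALE genes listed, those called were Iroquois genes, patterning factors of the neural tube. The list also held *Tgif2* and *Mkx*, and it was chosen with earlier results of these data known. Of its 8 genes, 7 were tested, with 4 higher and 1 lower in *Patz1* KO. The share called was 71.4%, against 47.9% of all genes tested, and the median log2 fold change was 0.44. *Irx1* and *Irx2* lie near each other on chromosome 13, and *Irx3*, *Irx5* and *Irx6* on chromosome 8, so the calls were not separate observations. *Irx3* had 16.4 and 13.8 CPM in WT and 25 and 24.2 CPM in *Patz1* KO (log2 fold change 0.7, edgeR adjusted p = 0.000202), and *Irx3os* overlaps it on the other strand. *Irx1* (log2 fold change 0.62), *Irx5* (0.54) and *Irx2* (0.44) rose as well, and the call of *Irx2* was lost with a minimum fold of 1.2 (edgeR adjusted p = 0.0693). *Irx6*, with WT counts of 15 and 20 and *Patz1* KO counts of 4 and 10, was called lower (edgeR adjusted p = 0.0157), but this call was lost with DESeq2's Wald test (adjusted p = 0.144) and without WT replicate 1 (log2 fold change -1.82, adjusted p = 0.0537), WT replicate 2 (-1.50, adjusted p = 0.152) or *Patz1* KO replicate 1 (-0.92, adjusted p = 0.218). *Irx4* was not tested in the main fit, with WT counts of 0 and 0 and *Patz1* KO counts of 7 and 7. Its mean *Patz1* KO level was 1.75-fold above a WT limit of 3 counts per library. This mean has its own counting error, so 1.75 is not a lower bound. *Tgif2* (log2 fold change -0.18) and *Mkx* (-0.25) did not pass.

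The next list held genes with enhancers known to bind Hox with Pbx, Meis or Prep proteins, or Meis alone. Of 11 listed and tested, 8 were lower, 1 was higher and 2 were not called (81.8% called, against 47.9% of all genes tested, of which 23.8% were lower), with a median log2 fold change of -0.58. Most of the list were *Hox* genes, and several of the lower ones were neighbours in the *HoxB* cluster, so the calls were not separate observations. The list was also chosen with earlier results of these data known. In the same libraries the markers of mesenchyme and endoderm had median log2 fold changes of -2.73 and -3.23, and their part in the result was not tested. *Foxp1*, a MN column factor whose exons overlap *Gm20696* and *Gm49348*, fell from 155 ± 0.672 to 74.9 ± 1.14 CPM (SD, n = 2 each). *Aldh1a2*, the retinoic acid synthesis enzyme, went down to 22.7 ± 1.14 CPM from 52.8 ± 1.28 CPM in WT (SD, n = 2 each), with a log2 fold change of -1.21 (edgeR adjusted p = 3.69e-08). *Hoxb4* had a log2 fold change of -0.91. *Hoxa2* was the gene that rose (log2 fold change 0.75). *Hoxa3* had 27.7 and 28.5 CPM in WT but 29.8 and 40.2 CPM in *Patz1* KO, so that its value rested on 1 library. Its log2 fold change was 0.31 (edgeR adjusted p = 0.0536), against 0.52 without *Patz1* KO replicate 1 (7.75e-06) and 0.093 without *Patz1* KO replicate 2 (0.488).

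Among genes of proteins that bind or regulate TALE factors, 1 was higher, 6 were lower and 10 were not called of 17 tested, with a median log2 fold change of -0.13. The share called, 41.2%, was near the 47.9% of all genes tested. *Crbn*, whose product takes part in the turnover of Meis2 and whose exons overlap *Trnt1* on the other strand, rose from 57.9 ± 2.39 to 91.7 ± 2.74 CPM (SD, n = 2 each). *Myh9*, which encodes a non-muscle myosin, went down to 41 ± 5.06 CPM from 132 ± 1.46 CPM in WT (SD, n = 2 each), with a log2 fold change of -1.68. *Smad3*, a partner of Tgif1, fell by 1.16 on the log2 scale.

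**Figure D4:**
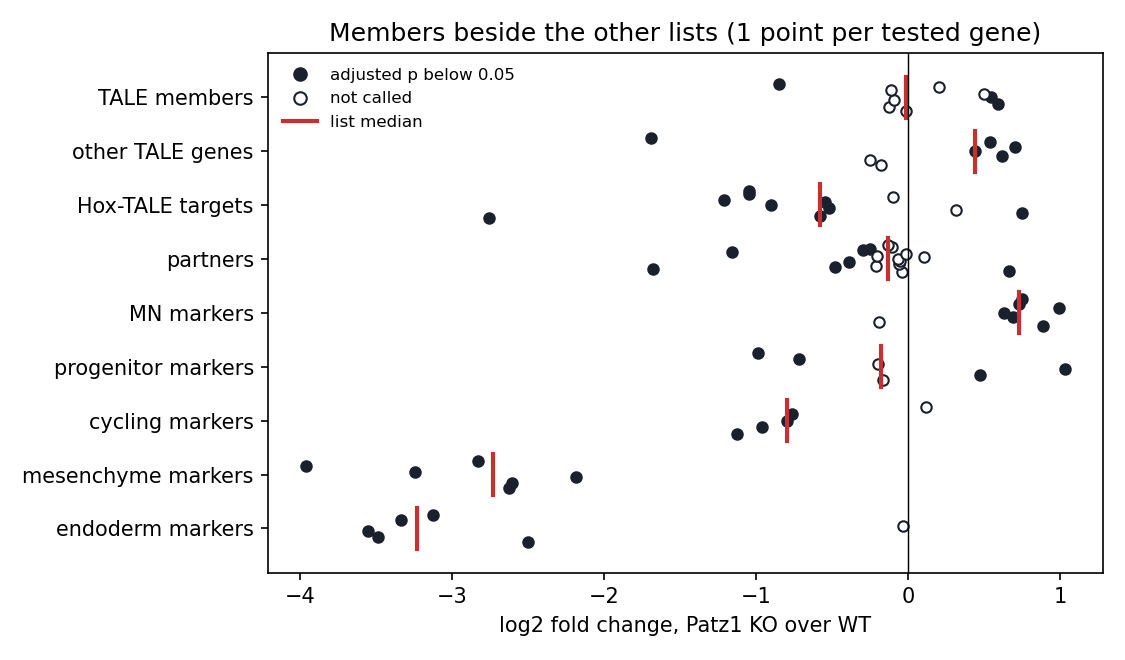
Log2 fold change of *Patz1* KO over WT for each tested gene of the TALE genes, the related lists and the cell type markers, with filled points for genes called at an adjusted p below 0.05 and a red bar at the list median. The 9 TALE genes spread around a median of -0.02, while the medians were 0.73 for MN markers, -0.58 for the targets and -2.73 for mesenchyme markers.

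The cultures differed in their markers too, and the part of this in the TALE results was not tested. For comparison with the counts below, 47.9% of all genes tested were called, 24.1% higher and 23.8% lower in *Patz1* KO. Markers of MNs were present in every library, and 6 of 7 were higher in *Patz1* KO with a median log2 fold change of 0.73, a summed level of 537 to 576 CPM in WT and 785 to 860 CPM in *Patz1* KO. The values of *Meis3* and *Pbx3* moved the same way as this sum, and so did the sums of the glial, neural crest and interneuron lists below. Markers of mesenchyme, 6 of 6 lower, summed to 143 to 162 CPM in WT and 16.1 to 17.5 CPM in *Patz1* KO, and those of endoderm, 5 of 6 lower, to 30.3 to 35.7 and 3.22 to 5.25 CPM. Markers of cycling cells, 4 of 5 lower, summed to 1450 to 1545 CPM in WT and 851 to 871 CPM in *Patz1* KO, and *Tgif1* moved the same way as these sums. Progenitor markers were mixed (2 higher, 2 lower of 6), with 811 to 838 CPM in WT and 592 to 612 CPM in *Patz1* KO. Their sum thus moved the same way as *Tgif1* too. Of the other lists, 3 of 5 interneuron markers were higher and 1 was lower (18.3 to 18.4 against 18.8 to 20.4 CPM), 2 of 3 neural crest markers were higher and 1 was lower (3.22 to 3.52 against 5.72 to 6.06 CPM), and 0 of the 2 pluripotency markers tested were called by edgeR's quasi-likelihood test (6.45 to 7.55 against 5.28 to 6.56 CPM). Of the 3 glial markers only *Slc1a3* was tested and was higher (46.6 to 52.1 against 116 to 117 CPM for the list), and *Gfap* stayed at or under 3 counts throughout.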

How the data were processed

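RNA-seq counts of 4 libraries were analysed, 2 WT and 2 *Patz1* KO, grouped by their titles and genotype labels. The titles name ESCs, while source and cell type name cervical MNs, and MNs were assumed. RNA was depleted of ribosomal RNA and made into stranded libraries. The deposited values are raw read counts per gene symbol, without normalization, which the authors made on mm10. The submitters' processing notes name TopHat2 2.1.1, Bowtie2 2.3.1 and featureCounts 1.6.2. The annotation and strand setting of the counting are not given in the sources used here, so genes with overlapping exons are uncertain. The labels do not say what a replicate is. The study's methods define biological replicates as separate differentiations, so p values measure the spread between such differentiations, with 2 per genotype.

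Counts were normalized with TMM, filtered with filterByExpr (minimum count 10) and tested with the quasi-likelihood test of edgeR 4.0.16 in R 4.3.3 on 14269 genes, 2-sided, with Benjamini-Hochberg adjustment over all of them and a threshold of 0.05. Standard errors were obtained from each log2 fold change and its F statistic, and 95% intervals from these. The study names DESeq2's Wald test, run here as an alternative (DESeq2 1.42.0). The other alternatives were 3 scalings, 2 filters, the replicate number as a block, robust dispersion, a minimum fold of 1.2 and leaving out each library. Named genes were the 9 genes, the other TALE genes, the 3 smallest p values of each further list (with *Hoxa2* and *Hoxa3* added after their values were seen) and the 3 nearest patterns, on log2(CPM + 0.1). Genes and lists were chosen with earlier results of these data known. Counts of 3 or fewer per library were taken as the detection limit, and this covers counting error only. Not every TALE gene or listed gene is reported by name here, though listed genes stay in the counts. Gene positions and lengths are from GENCODE M21. Python 3.11.15 was used for tables and matplotlib 3.10.9 for plots.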

Additional observations from a re-analysis of the deposited data

How the results depend on the processing

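With 2 libraries per genotype the spread of each gene rests on all genes together, and the smaller counts of *Pbx4* and *Irx6* limit both. *Meis3*, *Pbx3* and *Tgif1* kept direction and call under all 13 alternatives. Over the 9 genes and 13 alternatives, 110 of 117 values kept direction and side of the threshold, 5 passed it in addition (*Pbx4* in 4 fits, *Pknox2* in 1) and 2 changed sign, both of *Meis1*: log2 fold change 0.0045 without the filter on low counts, and -0.067 to 0.041 with single libraries removed. In fits without 1 library, the lone library of a genotype is assumed to vary like the other genotype. The number of the 9 genes called higher was 2, or 3 without the filter, with robust dispersion and with the block, and 2 to 3 without each library, while 1 was lower throughout. The largest move among all genes came from the minimum fold of 1.2, with 2239 higher and 2145 lower, and leaving out each library gave 2346 to 3985 higher and 2175 to 3831 lower, the lowest without WT replicate 2. DESeq2's Wald test called 2678 higher and 2443 lower, and library size alone 3082 and 3501. Among the other TALE genes, 5 were higher without the filter on low counts. Of the same list, 0 were lower with at least 10 counts in every library, where *Irx6* was not tested, and 0 with DESeq2's Wald test, and 0 to 1 without each library. Among the targets, 2 were higher with DESeq2's size factors, no filter, TMM computed without the top 20 genes, robust dispersion and the block, and 1 to 2 without each library. Among the partners, 3 were lower with the minimum fold of 1.2, and without each library 1 to 2 were higher and 4 to 8 lower. Signs of uncalled genes also changed for *Smad2* (0.0044 without the filter) and, without each library, for *Mkx* (-0.57 to 0.19), *Pbxip1* (-0.20 to 0.10), *Hdac3* (-0.12 to 0.0081), *Ctbp1* (-0.025 to 0.23) and *Smad2* (-0.066 to 0.039). By raw counts in place of counts per kb, the gain in share was 5.1 percentage points for *Meis3* and 10.3 for *Pbx3*. Division by length changes the weight of each gene in its sum. *Meis3* had 3.173 kb of exon, against 10.532 kb for *Meis1* and 12.043 kb for *Meis2*, and *Pbx3* had 6.109 kb, against 3.64 kb for *Pbx2*. Deviations of libraries with the same replicate number correlated at 0.0304, so no shared effect of the number was seen. With 2 libraries per genotype this cannot show whether the differentiations were run as pairs. With the replicate number as a block, 3710 genes were higher and 3651 lower, and among the 9 genes *Pbx4* passed (log2 fold change 0.51, edgeR adjusted p = 0.0405).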
